A study of Mus musculus with 8 samples.

Results

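The matrix metalloprotease (Mmp), ADAMTS (Adamts) and tissue inhibitor of metalloprotease (Timp) genes were followed across neural stem and progenitor cells (NSPCs) that overexpress the transcription factor NFIA and control NSPCs. Genes were taken by symbol, through the transcript accession that the array gives each probe: Mmp or Adamts followed by a number, and Timp1 to Timp4. The annotation held 46 such genes, and 45 of them had a probe (22 Mmp, 19 Adamts and 4 Timp genes, with 59 probes), of 19752 genes with a symbol on the array. Mmp27 had no probe. Of the 45, 25 gave a signal that could be tested.

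The NSPCs were derived from mouse embryonic stem cells, grown as neurospheres in which NFIA-overexpressing and other cells were mixed, and parted by fluorescence-activated cell sorting before RNA was taken. The 4 groups of 2 arrays were PNs_CT and PNs_NFIA_OE, the control and NFIA-overexpressing cells of primary neurospheres (passage 0, day 6 after embryoid bodies), and SNs_CT and SNs_NFIA_OE, the same from secondary neurospheres (passage 1, day 12). Every group came from a mixed sphere, so the controls had grown beside overexpressing cells. The promoter and vector that drive NFIA, the number of lines or clones, and whether replicates were separate cultures are not given in the sources used here, so p-values measure only the spread between these samples, which may be technical.

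Groups follow the sample titles, and titles, source names and attached files conflict. The source names place all 4 CT samples in the NFIA OE line, and PNs_NFIA_OE 1 and SNs_NFIA_OE 2 in WT. The scanner file attached to 7 of 8 samples holds the array that the authors' value table gives to another sample, and each array was assigned by the value table. All arrays lay on 1 slide with 1 scan; passage followed the rows of the slide and NFIA_OE its columns, and an effect of position cannot be told apart from either. On each array 45.4% to 56.4% of the spots were well above background, and 0 were saturated. The 8 NSPC markers examined, among them Sox2, Nes and Pax6, were well above background on all 8 arrays, as were the 5 markers of pluripotent cells. The brighter Nfia probe stood at -1.14 and -0.15 in PNs_CT, -0.07 and 1.08 in PNs_NFIA_OE, 1.15 and 0.80 in SNs_CT, and 1.86 and 1.81 in SNs_NFIA_OE, in log2 relative to the 75th percentile of the array, so that SNs_CT overlapped PNs_NFIA_OE. It was 1.01 ± 0.32 higher in NFIA_OE arrays without passing the test over all genes (limma, Benjamini-Hochberg adjusted p = 0.166), and a second Nfia probe was 1.95 higher. From PNs to SNs Nfia rose by 1.47 ± 0.32 (limma adjusted p = 0.0377).

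Mmp and Adamts enzymes are zinc proteases that cut proteins of the extracellular matrix and the cell surface. The Mmp enzymes are made as inactive precursors and comprise secreted forms and forms held in the membrane, while the Adamts enzymes are secreted, and several of them cut the chondroitin sulfate proteoglycans that fill the spaces of brain tissue. The Timp proteins bind and block the active enzymes. In the nervous system these genes take part in remodelling of matrix during migration, outgrowth and the response to injury.

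Values below are levels on the log2 scale relative to the 75th percentile of the array, so that 0 is that percentile and a difference of 1 is 2-fold. A level may be compared between arrays for 1 probe but not between probes. A gene was tested where at least 1 group had its probe well above background on both arrays, and adjusted p-values are from limma with Benjamini-Hochberg adjustment over 13797 genes, called under 0.05. The number of arrays, 2 a group, limits the precision. In bulk RNA, fewer cells of a type and less RNA per cell cannot be told apart.

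Which members gave a signal differed by family. A kept probe was found for 6 of 22 Mmp genes (27.3%), 15 of 19 Adamts genes (78.9%) and 4 of 4 Timp genes, against 13797 of 19752 genes on the array (69.9%). The tested Mmp genes were Mmp2, Mmp11, Mmp14, Mmp15, Mmp17 and Mmp24. Of the 20 genes not tested, 13 were not well above background on any array: the collagenase genes Mmp1a, Mmp8 and Mmp13, the stromelysin genes Mmp3 and Mmp10, the matrilysin gene Mmp7, the gelatinase gene Mmp9, the enamelysin gene Mmp20, Mmp21 and Mmp28, and Adamts13, whose enzyme cuts von Willebrand factor, Adamts16 and Adamts20. The other 7 passed on 1 to 4 arrays and never on both of a group: Mmp23 on 4, Mmp16 on 3, Mmp25 on 2, and Mmp1b, Mmp12, Mmp19 and Adamts19 on 1. A single array stood out for 3 of these: Mmp12 was at -3.16 in SNs_NFIA_OE 1 and between -6.47 and -4.98 elsewhere, Mmp19 was at -1.61 in SNs_NFIA_OE 1 and between -6.61 and -4.77 elsewhere, and Mmp1b was at -1.76 in SNs_NFIA_OE 2 and between -6.33 and -4.82 elsewhere. The other probe of Mmp12 did not show this: it was at -5.95 in SNs_NFIA_OE 1 and well above background on 0 arrays. A gene that is not well above background has a bound on its level, not a level of 0.

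**Figure D1:**
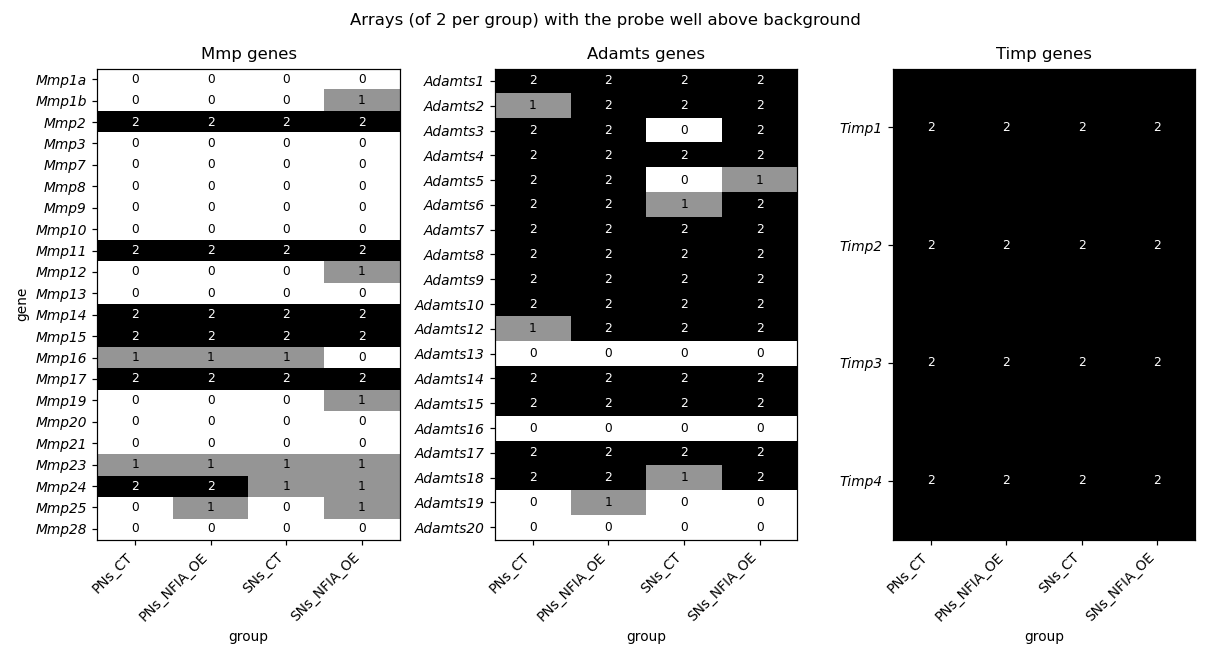
Number of arrays, of 2 in each group (columns), on which the probe of each gene (rows) was well above background; black is 2, grey is 1 and white is 0. For genes with several probes the tested one is shown, or the one that passed on most arrays. The Timp panel is black throughout, while most rows of the Mmp panel are white.

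The sequence before the start of untested and tested genes was searched for short motifs. Windows of 250 bases before the annotated start, from RefSeq on GRCm38.p6, were held for 32 members, 16 of them tested and 10 of them Mmp genes of chromosome 9, none of which was tested; these 10 include Mmp27, which has no probe. The motifs searched were the AP-1 motif TGANTCA, the GC box GGGCGG and the NFI core TTGGC on both strands, and TATAAA on the strand of the gene. The AP-1 motif occurred in 8 of the 10 chromosome 9 genes (80%) and TATAAA in 7 (70%), against 7.82% and 8.94% of 27025 genes. The GC box occurred in 0 of those 10 genes and in 13 of the 16 tested members (81.2%), against 35.4% of all genes. The AP-1 motif occurred in 0 of the 16 tested members. Members were chosen by name, and whether they were tested depended on their signal, so these shares are a description.

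The last 100 bases before the start of 3 dim chromosome 9 genes are shown because they carry both motifs of that set within a short stretch, 5′ to 3′ on the + strand, which is that of the genes, with AP-1 and TATAAA matches in capitals. They lie at chr9:7272414-7272513 for Mmp13, chr9:7445722-7445821 for Mmp3 and chr9:7502242-7502341 for Mmp10, and their probes ranged from -6.62 to -5.27, from -6.32 to -5.19 and from -6.59 to -5.24 over the 8 arrays.
Mmp13: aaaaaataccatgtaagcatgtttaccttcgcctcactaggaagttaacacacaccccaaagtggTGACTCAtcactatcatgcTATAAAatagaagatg
Mmp3: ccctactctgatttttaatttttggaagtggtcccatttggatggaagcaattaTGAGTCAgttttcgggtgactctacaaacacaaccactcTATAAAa
Mmp10: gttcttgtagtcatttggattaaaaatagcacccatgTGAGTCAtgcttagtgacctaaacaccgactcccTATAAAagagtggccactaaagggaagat

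The 250 bases before the start of Mmp14, Timp3 and Timp4 are shown beside them as members that passed the test in at least 1 comparison, 5′ to 3′ on the strand of the gene, with GC boxes (GGGCGG or its complement CCGCCC) and NFI cores (TTGGC or its complement GCCAA) in capitals. They lie at chr14:54431348-54431597 on the + strand, chr10:86300162-86300411 on the + strand and chr6:115252206-115252455 on the - strand.
Mmp14: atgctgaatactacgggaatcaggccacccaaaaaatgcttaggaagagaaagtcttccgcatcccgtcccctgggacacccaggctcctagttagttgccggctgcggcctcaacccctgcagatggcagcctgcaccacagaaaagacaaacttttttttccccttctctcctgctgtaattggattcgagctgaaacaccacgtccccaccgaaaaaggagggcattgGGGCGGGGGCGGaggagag
Timp3: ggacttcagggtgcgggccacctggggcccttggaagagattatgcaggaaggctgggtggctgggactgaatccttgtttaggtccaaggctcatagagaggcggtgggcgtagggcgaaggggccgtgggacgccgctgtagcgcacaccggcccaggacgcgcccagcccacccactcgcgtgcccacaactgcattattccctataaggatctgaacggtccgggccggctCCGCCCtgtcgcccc
Timp4: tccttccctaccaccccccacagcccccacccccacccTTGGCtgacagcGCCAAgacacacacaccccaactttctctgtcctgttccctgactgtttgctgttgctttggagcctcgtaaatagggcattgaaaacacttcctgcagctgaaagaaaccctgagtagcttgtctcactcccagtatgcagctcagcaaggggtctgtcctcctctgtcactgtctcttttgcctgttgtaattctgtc

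Mmp14 has a pair of abutting GC boxes close to its start and Timp3 has 1. Timp4 has no GC box and holds an NFI core on each strand, at -212 to -208 and -200 to -196 from the start. Over the 16 tested members the NFI core occurred in 6 (37.5%), against 45.3% of all genes. The longer half-site TTGGCA, which contains the core, occurred in 1, Timp2 (6.25%), against 14.1%. A match is a description of these letters, not of a bound site, and nothing is drawn from its absence.

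The comparison of NFIA_OE with CT cells over both passages asks which members go with NFIA overexpression. In it 7 of the 25 tested members rose and 0 fell. They were Mmp14, the membrane-bound activator of the Mmp2 precursor, Adamts8, Adamts12, Adamts17 and Adamts18, and the inhibitor genes Timp2 and Timp3. Among all genes tested 1.78% rose and 0.181% fell. The difference was positive for 22 of the 25, with a median of 1.17 against -0.04 over all genes, and 18 of the 25 had an unadjusted p under 0.05, against 17.6% of all genes (limma). For 8 of the 25 all 4 NFIA_OE arrays lay above all 4 CT arrays, which held for 3.7% of all genes, and for 0 they all lay below (2.06% of all genes). The 8 were Mmp14, Adamts1, Adamts6, Adamts8, Adamts9, Adamts15, Adamts18 and Timp1. The tested members include genes kept through 1 group alone. Among the 18 well above background on all 8 arrays, 5 rose (1.21% of all genes of that kind), with a median of 1.17 against -0.06 over the 11677 genes of that kind.

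The second comparison over all arrays, of SNs with PNs, asks which members go with passage and culture time. Here 8 of 25 rose and 0 fell: Mmp2, a gelatinase gene, Adamts2, Adamts8, Adamts12, Adamts17, Timp2, Timp3 and Timp4. Among all genes 3.44% rose and 3.68% fell. The median was 0.80, with 17 of 25 positive, against -0.07 over all genes, and 14 had an unadjusted p under 0.05 (26.1% of all genes). All 4 SNs arrays lay above all 4 PNs arrays for 3 members (Mmp2, Adamts2 and Timp4; 4.5% of all genes) and below them for 1 (Mmp11; 7.68%). Of the 18 members well above background on all arrays, 6 rose, against 2.97% of all such genes. This comparison and the first use the same 8 arrays.

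**Figure D2:**
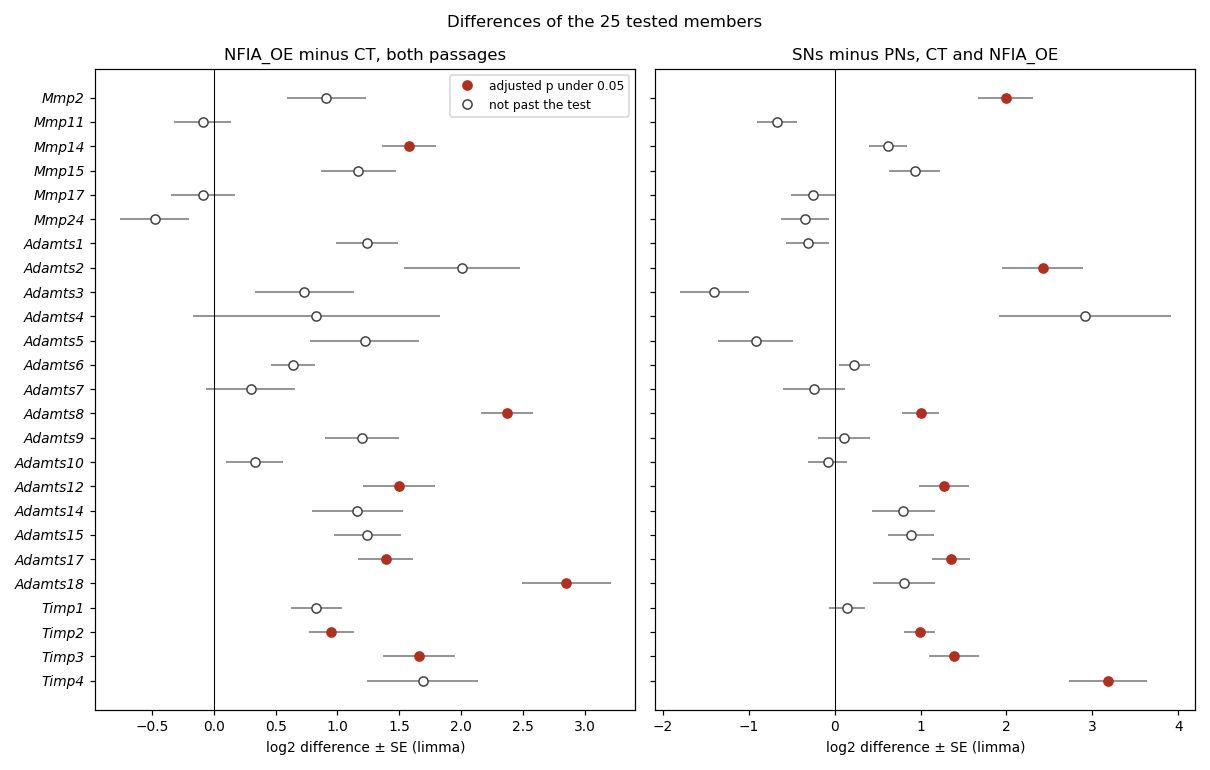
Log2 difference ± SE from limma for each of the 25 tested members, between NFIA_OE and CT (left, 4 arrays a side) and between SNs and PNs (right, 4 arrays a side). Filled points passed the test at an adjusted p under 0.05 over all genes and all lie right of 0, 7 on the left and 8 on the right.

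Of the inhibitors, Timp2 encodes the inhibitor that also links the Mmp2 precursor to the Mmp14 enzyme. Timp2 stood at 4.10 and 4.0 in PNs_CT, 4.55 and 4.91 in PNs_NFIA_OE, 4.72 and 4.82 in SNs_CT, and 6.08 and 5.89 in SNs_NFIA_OE. Both SNs_NFIA_OE arrays lay above every other array, and the PNs_NFIA_OE and SNs_CT arrays overlapped. It rose by 0.95 ± 0.18 with NFIA_OE (limma adjusted p = 0.0492) and by 0.99 ± 0.18 from PNs to SNs (adjusted p = 0.0282). A second probe differed by 0.81 in each of these comparisons. The NFIA_OE call was kept in 2 of 17 alternatives (adjusted p from 0.0349 to 1.0). It was lost with quantile normalization, the mean of probes, no filter on dim probes and the replicate block, and whichever array was left out.

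Timp3 encodes the inhibitor that is held in the matrix and also blocks several Adamts enzymes. Its levels were 1.21 and 1.31 in PNs_CT, 2.90 and 3.55 in PNs_NFIA_OE, 2.55 and 3.37 in SNs_CT, and 3.96 and 4.66 in SNs_NFIA_OE. PNs_CT was lowest and SNs_NFIA_OE highest without overlap, and the groups between them overlapped. The rise was 1.66 ± 0.29 with NFIA_OE, a 3.15-fold change (limma adjusted p = 0.0339), and 1.39 ± 0.29 from PNs to SNs (adjusted p = 0.0338). Each call was kept in 6 of 17 alternatives and was lost with no filter on dim probes. The NFIA_OE call was also lost with the omission of any array but SNs_CT 2, and the passage call with any but SNs_CT 1.

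Timp4, the inhibitor gene with the largest passage difference of the 25 members, stood at -1.75 and -1.76 in PNs_CT, -0.92 and 0.10 in PNs_NFIA_OE, 0.46 and 1.72 in SNs_CT, and 2.31 and 3.91 in SNs_NFIA_OE. No group overlapped another, and the order of groups was that in which they are given. From PNs to SNs it rose by 3.18 ± 0.45, a 9.09-fold change (limma adjusted p = 0.0169). The NFIA_OE difference of 1.69 ± 0.45 did not pass (adjusted p = 0.117).

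Timp1, an inhibitor gene known to be induced by injury and cytokines, was at -1.14 and -1.54 in PNs_CT, -0.28 and -0.72 in PNs_NFIA_OE, -1.49 and -0.90 in SNs_CT, and -0.56 and -0.18 in SNs_NFIA_OE. Every NFIA_OE array was above every CT array, and the passages overlapped. Its differences were 0.83 ± 0.21 with NFIA_OE (limma adjusted p = 0.106) and 0.14 ± 0.21 with passage (adjusted p = 0.729). On the summed signal of the 4 Timp genes, PNs_CT was lowest (4.34 and 4.26 in log2) and SNs_NFIA_OE highest (6.47 and 6.65). The other 4 arrays lay from 5.01 to 5.44. Signals were added before log2, so the sum is weighted to Timp2, the brightest of the 4 on every array.

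**Figure D3:**
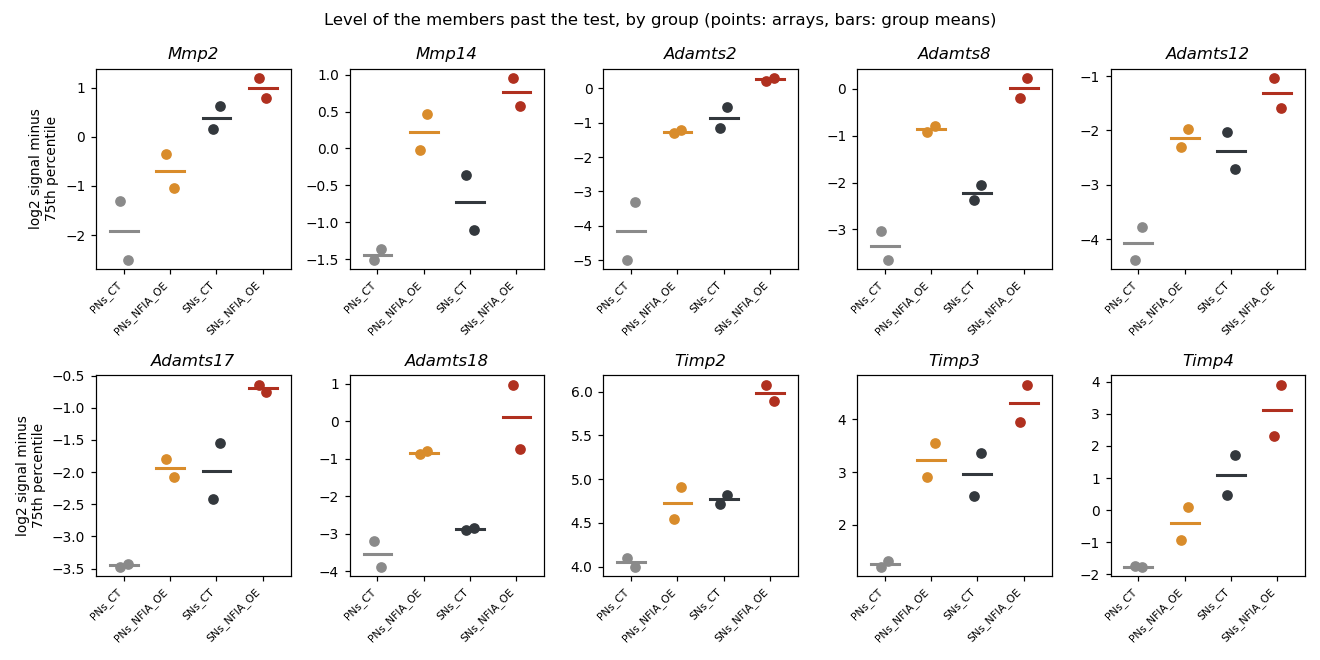
Level of each of the 10 members past the test in at least 1 comparison, in log2 units relative to the 75th percentile of the array; points are the 2 arrays of a group and bars their mean, each panel on its own scale. PNs_CT has the lowest and SNs_NFIA_OE the highest mean in all 10 panels.

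Among the Mmp genes, Mmp14 stood at -1.51 and -1.37 in PNs_CT, -0.02 and 0.47 in PNs_NFIA_OE, -0.36 and -1.10 in SNs_CT, and 0.96 and 0.57 in SNs_NFIA_OE. The NFIA_OE arrays were all above the CT arrays, with SNs_CT 1 closest to them. Mmp14 rose by 1.58 ± 0.22 with NFIA_OE, a 2.99-fold change (limma adjusted p = 0.0193), while its passage difference was 0.62 ± 0.22 (adjusted p = 0.131).

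Mmp2, the gene of the gelatinase that Mmp14 activates, was at -1.31 and -2.50 in PNs_CT, -0.35 and -1.04 in PNs_NFIA_OE, 0.16 and 0.62 in SNs_CT, and 1.20 and 0.78 in SNs_NFIA_OE. As for Timp4, the 4 groups did not overlap and stood in this order. Mmp2 rose by 1.99 ± 0.32 from PNs to SNs, a 3.97-fold change (limma adjusted p = 0.0211). The NFIA_OE difference was 0.91 ± 0.32 (adjusted p = 0.208).

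Mmp15, which encodes another membrane-bound enzyme, stood at -1.26 and -1.31 in PNs_CT, -1.07 and -0.32 in PNs_NFIA_OE, -0.73 and -1.14 in SNs_CT, and 0.94 and 0.68 in SNs_NFIA_OE. Only the SNs_NFIA_OE arrays were above 0. Its NFIA_OE difference over both passages was 1.17 ± 0.30 and did not pass (limma adjusted p = 0.103), and within SNs it was 1.75 ± 0.32 (adjusted p = 0.0627).

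The remaining 3 tested Mmp genes passed in 0 comparisons (limma). Mmp11, or stromelysin 3, was at 1.82 and 1.55 in PNs_CT, 1.91 and 1.51 in PNs_NFIA_OE, 1.23 and 1.03 in SNs_CT, and 1.36 and 0.49 in SNs_NFIA_OE, with every SNs array below every PNs array; the difference of -0.67 ± 0.23 did not pass (limma adjusted p = 0.118). The membrane-anchored Mmp17 had 0.42 and 1.07 in PNs_CT, 0.41 and 1.04 in PNs_NFIA_OE, 0.91 and 0.23 in SNs_CT, and 0.59 and 0.23 in SNs_NFIA_OE, so that all groups overlapped. Mmp24, a membrane-type gene expressed in the nervous system, was well above background on 6 arrays and ranged from -3.45 to -2.20. Its NFIA_OE difference of -0.48 ± 0.28 was the lowest of the 25 members (limma adjusted p = 0.442). A second Mmp24 probe, also well above background on 6 arrays, differed by -0.43. The probes disagree within passages: the tested probe differed by -0.70 in PNs and -0.25 in SNs, the second by 0.06 and -0.93.

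Of the Adamts genes whose enzymes cut aggrecan, versican or related proteoglycans (Adamts1, Adamts4, Adamts5, Adamts8, Adamts9 and Adamts15), Adamts8 passed the most comparisons. It stood at -3.04 and -3.65 in PNs_CT, -0.91 and -0.79 in PNs_NFIA_OE, -2.38 and -2.05 in SNs_CT, and -0.20 and 0.24 in SNs_NFIA_OE, with all NFIA_OE arrays above all CT arrays. The rise with NFIA_OE was 2.37 ± 0.21, a 5.15-fold change (limma adjusted p = 0.009), and with passage 1.00 ± 0.21 (adjusted p = 0.0352). The passage call was kept in 3 of 17 alternatives. It was lost with normexp, quantile normalization, no filter and the mean of probes. The probes of this gene disagree: a second, dimmer probe, well above background on 4 arrays, differed by 0.36 with NFIA_OE and by -0.06 with passage. With the mean of both probes the NFIA_OE difference was 1.36 ± 0.29 (adjusted p = 0.0622, in a range of 0.00638 to 1.0 over 17 alternatives), so the call rests on the brighter probe.

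Adamts1 stood at 1.70 and 1.55 in PNs_CT, 2.84 and 2.49 in PNs_NFIA_OE, 0.76 and 1.47 in SNs_CT, and 2.91 and 2.20 in SNs_NFIA_OE. Adamts15 was at -1.18 and -1.79 in PNs_CT, 0.00 and -0.39 in PNs_NFIA_OE, -0.62 and -0.46 in SNs_CT, and 1.20 and 0.11 in SNs_NFIA_OE. Adamts9 was at -0.67 and -0.94 in PNs_CT, 0.74 and 1.05 in PNs_NFIA_OE, -0.67 and 0.29 in SNs_CT, and 0.29 and 0.72 in SNs_NFIA_OE. For all 3 genes the NFIA_OE arrays were above the CT arrays, in Adamts9 with SNs_CT 2 and SNs_NFIA_OE 1 level to 2 decimals. Their NFIA_OE differences were 1.24 ± 0.25, 1.24 ± 0.27 and 1.20 ± 0.30, and none passed (limma adjusted p = 0.0526, 0.0701 and 0.103).

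Adamts5 was well above background on both arrays of PNs_CT (-3.71 and -3.58) and PNs_NFIA_OE (-2.68 and -3.87), on neither of SNs_CT (-5.27 and -5.57) and on 1 of SNs_NFIA_OE (-3.87 and -2.82). The SNs_CT arrays were the lowest. Its differences were 1.22 ± 0.44 with NFIA_OE (limma adjusted p = 0.218) and -0.92 ± 0.44 with passage (adjusted p = 0.236). Within SNs the fitted NFIA_OE difference was 2.07 ± 0.48 (limma adjusted p = 0.103), and a second probe differed by 1.34. With neither SNs_CT array and only 1 SNs_NFIA_OE array well above background, this size rests largely on signal near background. No lower bound is given for it.

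Adamts4, the gene of an aggrecanase that is a marker of oligodendrocytes in the brain, had the largest SE of the 25. It stood at -2.51 and -2.46 in PNs_CT, -0.67 and -0.77 in PNs_NFIA_OE, -1.21 and 3.94 in SNs_CT, and 1.03 and 1.48 in SNs_NFIA_OE. SNs_CT 2 was thus the highest array and SNs_CT 1 lay below every other array of the secondary spheres. The same array, SNs_CT 2, had the highest Sox10 (4.07, against -0.22 in SNs_CT 1) and Pdgfra (3.11 against 0.81). It also had the highest S100b, of the astrocyte list (5.25 against -4.11). Olig2 was highest in SNs_NFIA_OE 2 (3.66, against 2.65 in SNs_CT 2) and Mbp in PNs_CT 1 (2.70 against 2.63). SNs_NFIA_OE 2 had Sox10 at 3.27 and S100b at 4.33, with Adamts4 at 1.48. The 4 oligodendrocyte lineage markers, all with a kept probe, summed to 5.24 in log2 in SNs_CT 2. The sum was 4.86 in SNs_NFIA_OE 2 and 2.51 to 3.07 on the other 6 arrays. The part of these markers in the level of Adamts4 was not tested.

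The call for Adamts4 turns on which SNs_CT array is used. With both, the NFIA_OE difference in SNs was -0.11 ± 1.40 (limma adjusted p = 0.983) and the passage difference over all arrays 2.91 ± 1.00 (adjusted p = 0.116). Without SNs_CT 2 the NFIA_OE difference in SNs was 2.47 ± 0.30 (adjusted p = 0.0294), and without SNs_CT 1 it was -2.69 ± 0.30 (adjusted p = 0.0453), the lone array being assumed to vary like the other groups. The passage difference was positive either way, 1.69 ± 0.22 without SNs_CT 2 and 3.75 ± 0.86 without SNs_CT 1 (adjusted p = 0.0238 and 0.0394). The summed signal of the 15 Adamts genes adds signals before log2 and so is weighted to the brightest, which on SNs_CT 2 was Adamts4 (3.94). SNs_CT 2 had the highest sum (4.55 in log2), while SNs_CT 1 (2.77) lay with PNs_CT (2.76 and 2.72). None of the other tested Adamts genes had its highest level on SNs_CT 2, so the sum there is not a pattern of the family.

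Among the procollagen N-proteinase genes, Adamts2 stood at -4.99 and -3.32 in PNs_CT, where it was well above background on 1 array, -1.30 and -1.22 in PNs_NFIA_OE, -1.16 and -0.54 in SNs_CT, and 0.22 and 0.31 in SNs_NFIA_OE. The groups did not overlap, and PNs_CT lay far below the rest. It rose by 2.42 ± 0.47 with passage (limma adjusted p = 0.0303), while the NFIA_OE difference of 2.01 ± 0.47 did not pass (adjusted p = 0.0842). Both sizes rest partly on signal near background in PNs_CT, and with normexp the passage difference was 1.42 ± 0.18.

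Adamts14 was at -2.16 and -1.87 in PNs_CT, -0.85 and -0.80 in PNs_NFIA_OE, -2.12 and -0.25 in SNs_CT, and -0.22 and 0.12 in SNs_NFIA_OE. SNs_CT 1 lay with PNs_CT and SNs_CT 2 near SNs_NFIA_OE, and neither difference passed (limma adjusted p = 0.17 for NFIA_OE and 0.22 for passage). Adamts3 was at -1.91 and -1.78 in PNs_CT, -1.51 and -1.34 in PNs_NFIA_OE, -2.96 and -4.16 in SNs_CT, where it was well above background on 0 arrays, and -1.72 and -3.32 in SNs_NFIA_OE. Its passage difference of -1.40 ± 0.40 was the lowest of the 25 members and did not pass (adjusted p = 0.075).

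Of the pair whose enzymes cut cartilage oligomeric matrix protein, Adamts12 stood at -4.38 and -3.77 in PNs_CT, where it was well above background on 1 array, -2.31 and -1.97 in PNs_NFIA_OE, -2.03 and -2.71 in SNs_CT, and -1.03 and -1.59 in SNs_NFIA_OE. PNs_CT was lowest and SNs_NFIA_OE highest, with overlap between the others. It rose by 1.50 ± 0.29 with NFIA_OE (limma adjusted p = 0.0483) and by 1.27 ± 0.29 with passage (adjusted p = 0.0429). Each call was kept in 4 of 17 alternatives (adjusted p from 0.0461 to 1.0 and from 0.0377 to 1.0). The NFIA_OE call was lost with normexp, no filter and whichever array was left out. The passage call was lost with the replicate block, quantile normalization, no filter and the omission of any array but SNs_CT 1. Adamts7 was at -0.44 and 0.04 in PNs_CT, 0.09 and 0.06 in PNs_NFIA_OE, 0.30 and -1.23 in SNs_CT, and 0.31 and -0.61 in SNs_NFIA_OE, with differences of 0.30 ± 0.36 and -0.24 ± 0.36 (adjusted p = 0.73 and 0.71).

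Adamts17 and Adamts18 encode enzymes with few known substrates. Adamts18 stood at -3.20 and -3.88 in PNs_CT, -0.88 and -0.79 in PNs_NFIA_OE, -2.89 and -2.85 in SNs_CT, where it was well above background on 1 array, and 0.98 and -0.74 in SNs_NFIA_OE. All 4 NFIA_OE arrays were above all CT arrays, and the difference of 2.85 ± 0.36, a 7.19-fold rise, was the largest NFIA_OE difference of the 25 (limma adjusted p = 0.0144). Its passage difference was 0.81 ± 0.36 (adjusted p = 0.205).

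Adamts17 was at -3.47 and -3.43 in PNs_CT, -1.80 and -2.08 in PNs_NFIA_OE, -2.42 and -1.55 in SNs_CT, and -0.64 and -0.76 in SNs_NFIA_OE. The 2 middle groups overlapped. It rose by 1.39 ± 0.22 with NFIA_OE (limma adjusted p = 0.0257) and by 1.35 ± 0.22 with passage (adjusted p = 0.0211). A second, dimmer probe differed by 1.15 and 1.36. That probe was well above background on 4 arrays and on 0 of PNs_CT, so these sizes rest partly on signal near background. Its NFIA_OE difference was 1.75 in PNs and 0.56 in SNs. With the mean of both probes neither call was kept. The NFIA_OE call was kept in 5 and the passage call in 8 of 17 alternatives.

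Adamts6 and Adamts10, a closely related pair tied to fibrillin microfibrils had small differences with both factors. Adamts10 was at -1.44 and -1.34 in PNs_CT, -1.25 and -1.17 in PNs_NFIA_OE, -1.17 and -2.06 in SNs_CT, and -0.93 and -1.35 in SNs_NFIA_OE, and Adamts6 ranged from -2.50 to -1.29. Adamts6 lay higher on all NFIA_OE arrays, by 0.64 ± 0.18, without passing (limma adjusted p = 0.134), and the difference of Adamts10 was 0.33 ± 0.23 (adjusted p = 0.522).

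Taken within 1 passage, with 2 arrays a side, fewer members passed. In PNs 1 member rose with NFIA_OE, Adamts8 by 2.50 ± 0.31 (limma adjusted p = 0.0335), against 0.304% of all genes. In SNs 1 member rose, again Adamts8, by 2.23 ± 0.31 (adjusted p = 0.0362), against 0.471%. The second, dimmer Adamts8 probe differed by 0.39 in PNs and 0.33 in SNs, and both calls were lost with the mean of probes. NFIA_OE arrays lay above CT arrays without overlap for 21 of 25 members in PNs (22.5% of all genes) and 18 in SNs (19.4%), and below without overlap for Mmp24 in PNs (29% of all genes) and for 0 members in SNs (19.5%). The second Mmp24 probe overlapped in PNs, at -3.15 and -2.77 in PNs_CT and -3.02 and -2.78 in PNs_NFIA_OE. The median difference of the members was 1.19 in PNs and 1.11 in SNs, against -0.07 and -0.01 over all genes.

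The difference between these effects, tested directly, passed for 0 members and 0 genes (limma); 3 members and 905 genes (6.56%) had an unadjusted p under 0.05. These 3 were Mmp15, with an NFIA_OE difference larger in SNs by 1.16 ± 0.46, Adamts5, larger in SNs by 1.70 ± 0.69 in a fit that includes the SNs_CT arrays where it was not well above background, and Adamts2, smaller in SNs by -1.78 ± 0.74 (adjusted p = 0.717, 0.738 and 0.748).

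**Figure D4:**
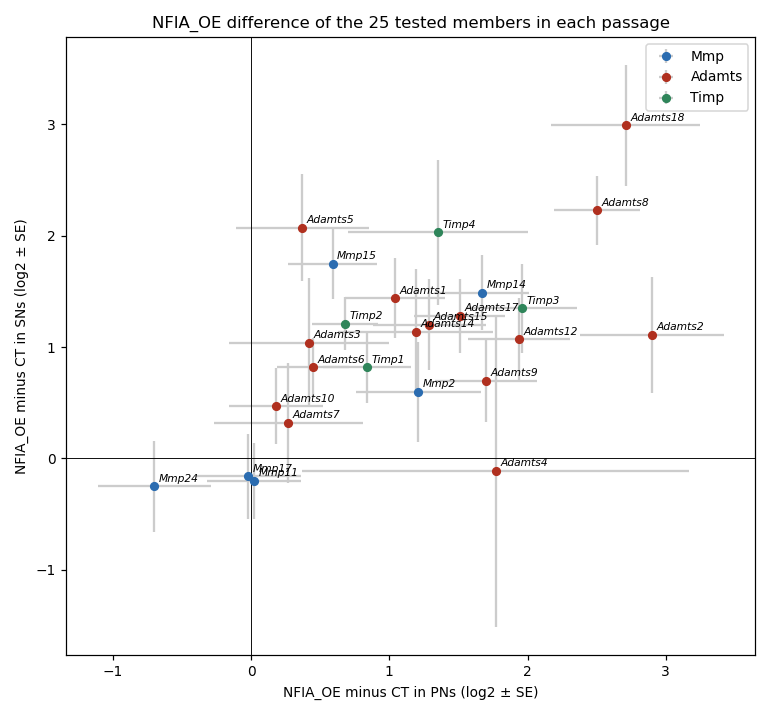
NFIA_OE minus CT difference of each of the 25 tested members in PNs (x axis) and in SNs (y axis), in log2 units, with SE bars, 2 arrays a side; colours give the family. Adamts8 and Adamts18 lie above 2 on both axes, Adamts2 stands higher in PNs (2.90 against 1.11) and Adamts4 is close to 0 in SNs with a wide bar.

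The passage comparison was also made within CT and within NFIA_OE cells. In CT 1 member rose, Adamts2 by 3.31 ± 0.52 (limma adjusted p = 0.0499), against 0.689% of all genes. Adamts2 was well above background on 1 of 2 PNs_CT arrays, so the size of this difference rests partly on signal near background. In NFIA_OE 0 members passed, against 0.493% of genes that rose and 1.16% that fell, while 8 members had an unadjusted p under 0.05 (21.1% of all genes); Timp4 was closest, 3.52 ± 0.65 higher in SNs (adjusted p = 0.0516). SNs lay above PNs without overlap for 13 of 25 members in CT (16.3% of all genes) and 15 in NFIA_OE (26.3%). Below PNs lay 4 in CT (26.2%) and 3 in NFIA_OE (30.7%).

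The counts of calls depended on single arrays, for all genes as for members. With 1 array left out, all genes called with NFIA_OE over both passages ranged from 32 to 366, against 270 with every array. Those called with passage over all arrays ranged from 46 to 1639, against 982. Members called with NFIA_OE over both passages numbered 2, 2, 4, 1, 3, 8, 2 and 4 when PNs_CT 1 and 2, PNs_NFIA_OE 1 and 2, SNs_CT 1 and 2, and SNs_NFIA_OE 1 and 2 were left out in that order, and those called with passage 0, 2, 0, 1, 10, 5, 2 and 3. The rise of Adamts8 with NFIA_OE over both passages was called whichever array was left out. Within PNs it was called only without SNs_CT 1 or SNs_CT 2, while within SNs 1 member (Adamts4) was called without SNs_CT 1, 4 without SNs_CT 2 and 0 without any other array. The passage counts were 4 in CT without SNs_CT 1, 1 without PNs_CT 2 and 0 without any other array, and in NFIA_OE 4 without SNs_CT 1, 4 without SNs_CT 2 and 0 otherwise. The difference of effects was called for 1 member, Adamts4, without SNs_CT 1. With arrays taken from the attached files, or with groups from the source names, 0 members and 0 of all genes were called in each of the 7 comparisons.

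Markers of other cell types moved with the same comparisons. The 6 astrocyte markers, all tested, had positive differences in both comparisons over all arrays (medians 2.33 and 2.55). Sparcl1 rose in both, Slc1a3 with passage. Gfap was well above background on 2 arrays and kept through SNs_NFIA_OE alone, so its sign was set largely by the filter. Its differences, 1.80 and 2.93, are among the middle values that make both medians. S100b was well above background on 5 arrays. Sums of lists add signals before log2 and are weighted to the brightest gene. For the 6 astrocyte markers the sum ranged from 3.99 to 4.13 in PNs_CT, 6.10 to 7.73 in PNs_NFIA_OE, 5.72 to 7.86 in SNs_CT and 9.05 to 9.87 in SNs_NFIA_OE. The 10 mesenchymal and mural markers, all tested, summed to 2.77 to 3.40, 4.59 to 5.11, 6.21 to 6.95 and 6.24 to 6.55 in the same order; Acta2 and Prrx1 rose with NFIA_OE, and Col1a1, Col3a1 and Dcn with passage. In PNs 10 of these 10 had a positive NFIA_OE difference (9 with an unadjusted p under 0.05, limma; median 1.85), where the members' median was 1.19. In SNs 7 of the 10 had a negative one (median -0.44), where the members' median was 1.11. Of endothelial markers Cdh5, Tek and Tie1, and of blood and microglia markers Ptprc, Aif1, Cx3cr1 and Tyrobp, had no kept probe. Kdr, Csf1r and Itgam were well above background on all 8 arrays and Pecam1 on 5, and the tested pairs summed to 3.61 to 4.48 for endothelial and 3.92 to 5.84 for blood and microglia markers. Of 5 neuron markers 4 had a negative NFIA_OE difference (median -0.64), Stmn2 fell by 1.68 with passage (limma adjusted p = 0.0396), and the list summed to 7.40 and 7.22 in PNs_CT, 6.94 and 6.65 in PNs_NFIA_OE, 7.51 and 5.95 in SNs_CT, and 5.67 and 5.27 in SNs_NFIA_OE. The NSPC marker Pax6 fell by 2.13 with passage (limma adjusted p = 0.0161), the only 1 of 8 NSPC markers called there. Of the 8, 7 had a negative passage difference (median -0.19), while Fabp7 was 1.34 higher without passing. The NSPC list summed to 8.47 and 9.21 in SNs_NFIA_OE and to 7.69 to 8.04 on the other arrays. In SNs_NFIA_OE this sum is weighted to Fabp7 (7.41 and 8.89), so it is not a pattern of the list. Vim was also highest on SNs_NFIA_OE 1 (6.88). Nes was lower in SNs_NFIA_OE (4.56 and 3.01) than in PNs_CT (4.89 and 4.79), as was Msi1 (1.18 and 0.08, against 1.68 and 2.33). Of the endoderm and yolk sac markers, 5 of 7 tested, Sox7 was at least 2.93-fold higher in NFIA_OE (limma adjusted p = 0.0122), not being well above background on any CT array. It was the only 1 of the 5 called with NFIA_OE. The NFIA_OE difference was positive for 5 of the 5 in PNs (median 2.32) and negative for 4 in SNs (median -0.29). Afp, well above background on 2 arrays, and Sox7, on 4, were kept through NFIA_OE groups alone. Their positive sign in PNs thus follows partly from the filter. The PNs median is the Sox7 value, fitted against PNs_CT arrays where Sox7 was not well above background. Pluripotent markers summed to 5.30 to 6.31 in PNs, 4.36 to 5.23 in SNs_CT and 2.22 to 3.33 in SNs_NFIA_OE, and epithelial markers to 2.95 to 5.53, 2.63 to 4.27 and -0.64 to 0.03. The part of these markers in the member differences was not tested.

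**Figure D5:**
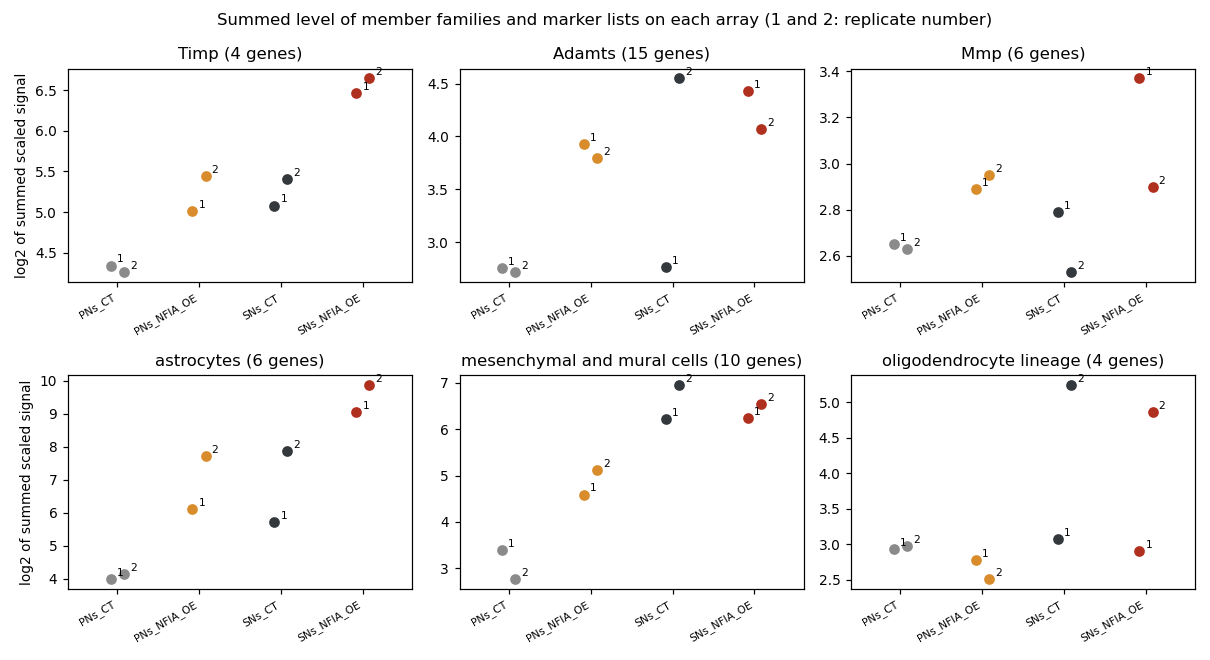
Log2 of the summed scaled signal on each array for the tested Timp, Adamts and Mmp genes (top) and for markers of astrocytes, mesenchymal and mural cells and the oligodendrocyte lineage (bottom), by group; each point is 1 array, labelled with its replicate number, and each panel has its own scale. The Timp and astrocyte sums are lowest in PNs_CT and highest in SNs_NFIA_OE, and SNs_CT 2 is the highest array in the Adamts and oligodendrocyte panels, in the latter with SNs_NFIA_OE 2 close below it. Adamts4 is the brightest gene of the Adamts sum on SNs_CT 2, and the other Adamts genes are not highest there.

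Other genes of the pathway were taken from 4 lists. Of 20 activators, inhibitors and regulators of matrix proteases 14 were tested, and 1 rose with NFIA_OE: Furin, whose convertase activates Mmp14 and many Adamts precursors, by 0.88 ± 0.16 (limma adjusted p = 0.0396). With passage 1 rose, the protease nexin gene Serpine2, by 1.77 ± 0.39 (adjusted p = 0.04). Papln, which encodes the Adamts-related protein papilin, fell by 2.35 with NFIA_OE in SNs (adjusted p = 0.0362). The list's median was 0.51 with NFIA_OE and 0.54 with passage.

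Of 11 genes of the neighbouring Adam family, 10 were tested. With NFIA_OE 0 passed and 3 had an unadjusted p under 0.05 (limma), with a median of 0.20. With passage Adam22 rose by 0.74 ± 0.17 and Adam23 fell by 1.52 (limma adjusted p = 0.0426 and 0.0401). Of 5 Adamts-like genes, which lack the protease domain, 2 were tested and 0 passed (limma), with a median of 1.66 with NFIA_OE and 1 of the 2 with an unadjusted p under 0.05.

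Of 25 neural matrix substrates 18 were tested, with a median of 0.64 with NFIA_OE and 0.83 with passage. Thbs2, the gene of thrombospondin 2, rose with NFIA_OE by 3.77 ± 0.38 (limma adjusted p = 0.0122); it was well above background on 4 NFIA_OE arrays and 1 of 4 CT arrays, so the size of this difference rests partly on signal near background. Within PNs Tnc, the gene of tenascin C, was at least 25.5-fold higher in NFIA_OE (adjusted p = 0.028), not being well above background in either PNs_CT array; this bound sets the mean of the higher group against the mean of, on each dim array, the higher of the gene's own signal and the lowest signal well above background. With passage 5 rose: Bcan by 5.14 ± 1.03 and Cspg5 by 1.87 ± 0.37, which encode the proteoglycans brevican and neuroglycan C, Cspg4 by 2.63 ± 0.52, Nid1 by 2.26 ± 0.51 and Thbs2 by 2.17 ± 0.38 (adjusted p = 0.0323, 0.0314, 0.0318, 0.0425 and 0.0259). On the PNs side Cspg4 and Thbs2 were each well above background on 2 of 4 arrays, and on the SNs side Thbs2 on 3. Bcan encodes a known substrate of the Adamts4 enzyme.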

How the data were processed

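RNA of 8 samples was hybridised to 1-colour Agilent arrays, with Cy3-labelled cRNA made from low-input RNA per the labels' protocols. The scanner files hold background-subtracted spot intensity from Feature Extraction 10.5.1.1, per the file headers, and other values of 0 or 1 that mark spots well above background, saturated or outlying. The submitters' processing notes name Feature Extraction 10.7.3.1. The authors' deposited value table holds log2 values, which its values show to be centred on each probe's median (largest absolute probe median 0.000245; column medians -0.16 to 0.22). A column matched 1 scanner file with r of at least 0.9984 and any other with at most 0.3349, and 7 of 8 matched the file of another sample. Levels come from the matched files.

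Of 55681 probes, 26056 had a symbol through their accession. The log2 of the processed signal, minus the array's 75th percentile (273.6 to 554.7 before log2), was used for the brightest kept probe of each gene, without 126 probes with outlier flags. limma 3.58.1 in R 4.3.3 was fitted to 4 group means and, for the comparisons over both passages and over both cell types, to additive terms, with Benjamini-Hochberg adjustment. The script was tested on simulated data. Members and lists were chosen with earlier results of these data known. A few genes of the lists are not reported here and were left out of their counts and sums. Every member is named, with all 8 values for those past the test, the Timp genes, those well above background on every array and the 8 largest differences in each comparison over all arrays. Alternatives were the background correction (normexp with offset 50, on median instead of mean signals), quantile normalization, no filter, the mean of probes, the deposited value table, attached files, source names, a replicate block, only the groups compared, and leaving out arrays.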

Additional observations from a re-analysis of the deposited data

How the results depend on the processing

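Of the 18 calls on single members, the deposited value table kept 18, the replicate block 16, normexp and quantile normalization 14 each, the mean of a gene's probes 11, and no filter on dim probes 8. Over 17 alternatives the NFIA_OE calls of Adamts18, Adamts8 and Mmp14 over both passages were kept in 14, 13 and 10. The passage calls of Timp4, Mmp2, Timp2 and Adamts2 over all arrays were kept in 12, 10, 8 and 6. Members called with NFIA_OE over both passages (7) numbered 4 with no filter, 4 with the mean of probes, and 1 without PNs_NFIA_OE 1 and SNs_NFIA_OE 2 together. Members called with passage over all arrays (8) numbered 4 with no filter and 0 without those arrays. The single call in PNs became 0 with normexp, quantile normalization, no filter, the mean of probes and without those arrays, and 3 with only the groups compared. The single call in SNs became 3 with normexp and 0 with no filter, the mean of probes, only the groups compared and without those arrays. The single passage call in CT became 0 with no filter, only the groups compared and without those arrays. The 0 passage calls in NFIA_OE became 2 with normexp, 1 with quantile normalization and 1 with the mean of probes. With only the groups compared, no value could be had for the comparisons over all arrays or the difference of effects. All genes called with NFIA_OE over both passages numbered 148 with no filter and 291 with the mean of probes, against 270. With passage over all arrays they numbered 458 and 1002, against 982.

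With attached files or source names 0 members and 0 of all genes were called in any comparison. Source names turned the NFIA_OE differences over both passages to -0.76 for Mmp14, -1.68 for Adamts8, -0.70 for Adamts12, -0.98 for Adamts17, -1.30 for Adamts18, -0.45 for Timp2 and -1.12 for Timp3, and those of Adamts8 to -1.58 in PNs and -1.78 in SNs; the only WT arrays by source name are titled NFIA_OE. Attached files turned Adamts18 (-0.14) and Timp2 (-0.27) over both passages, Adamts8 in SNs (-0.24), and the passage differences of Adamts2 (-0.57, and -0.79 in CT), Adamts12 (-0.21), Adamts17 (-0.19), Timp2 (-0.14), Timp3 (-0.22) and Timp4 (-0.17).

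Leaving out 1 array gave 1 to 8 calls with NFIA_OE, 0 to 1 in PNs, 0 to 4 in SNs, 0 to 10 with passage, 0 to 4 in CT, 0 to 4 in NFIA_OE and 0 to 1 for the difference of effects, and turned no called value. All genes called with NFIA_OE ranged from 0 to 366 over 17 alternatives, against 270, and with passage from 0 to 1639, against 982.

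The labels do not say that replicate numbers mark a shared culture. Deviations of equally numbered arrays correlated at 0.44 in PNs and 0.48 in SNs, and from -0.19 to 0.04 across passages. With a replicate block the calls were 8 with NFIA_OE, 2 in PNs, 6 in SNs, 7 with passage, 2 in CT and 1 in NFIA_OE. All genes called then numbered 356, 70, 649, 1081, 147 and 325 in that order. Without the block they numbered 270, 42, 122, 982, 111 and 228. The block added Timp1 and Timp4 and lost Timp2 with NFIA_OE, added Adamts12 in PNs and Adamts18, Mmp14, Mmp15, Timp3 and Timp4 in SNs, lost Adamts12 with passage, and added Timp4 in CT and in NFIA_OE. The cause of these shifts was not tested. Signal over background limits 20 of the 45 members, for which no difference can be given.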
